A study of Mus musculus with 13 samples.

Results

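Bcl6 was examined as a locus: every STAT3 peak that overlapped the RefSeq span of the gene (mouse build mm10, chromosome 16, 23965050 to 23988866, transcribed toward lower coordinates) or the 200 kb on either side was taken, a window of 423817 bp. The 12 deposited peak lists held 6 such peaks, out of 13513 peaks on chromosomes 1 to 19, X and Y. Peaks sharing at least 1 bp were merged across libraries, which gave 3 sites of 11227 in all. One site lay at the start of Bcl6 and was found in every wild-type (WT) library given IL-21. The other 2 lay upstream of the gene and were each found in 1 library.

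The assay was CUT&RUN: an anti-STAT3 antibody (clone 124H6) tethers a nuclease to chromatin inside permeabilised cells, and the DNA it cuts free is sequenced. Splenic B cells of WT or STAT3 knockout (KO) mice were first kept for 96 h in anti-CD40 (1 μg/mL) plus IL-4 (12.5 ng/mL), after which IgM+ and IgG1+ cells were separated by sorting and 400000 of them restimulated for 1 h. Anti-CD40 was present again, together with IL-4 at 12.5 ng/mL in some cultures and IL-21 at 10 ng/mL in the rest. All groups thus share the earlier IL-4 culture, and the presence of IL-21 and the lack of IL-4 in the last hour cannot be told apart. The 8 groups were WT IgM with IL-4, WT IgG1 with IL-4, WT IgM with IL-21 and WT IgG1 with IL-21, with 2 libraries each, and the 4 matching KO groups with 1 library each. The labels name the genotype as STAT3 KO without the allele or a Cre driver, give no age, and do not say whether libraries came from separate animals, so a p-value here speaks of variation among libraries that could be purely technical. A peak list holds no RNA level, so neither the B cell label nor the deletion of Stat3 could be checked here. The lists held 865 to 2034 peaks for WT with IL-21, 623 to 1455 for WT with IL-4 and 648 to 1892 for KO.

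BCL6 is a transcriptional repressor with a BTB domain and zinc fingers, and it is required for B cells to form germinal centres, where they mutate and select their antibodies. It holds back genes of plasma cell differentiation, among them Prdm1. IL-21, made by follicular helper T cells, acts through its own receptor chain and the common gamma chain, the kinases JAK1 and JAK3, and STAT3. STAT dimers bind palindromic DNA of the form TTCNNNGAA, in which N is any base.

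RefSeq (GRCm38.p6, the assembly of mm10) gives 2 starts of Bcl6 in the promoter table, the first at 23988852 and the second 7569 bp inside the gene at 23981283. The 250 bases before each start are shown, because the peaks reached the one and not the other. Both are on the minus strand, 5′ to 3′, and the fixed letters of each TTCNNNGAA match are in capitals.
Bcl6 first start, chr16:23988853-23989102: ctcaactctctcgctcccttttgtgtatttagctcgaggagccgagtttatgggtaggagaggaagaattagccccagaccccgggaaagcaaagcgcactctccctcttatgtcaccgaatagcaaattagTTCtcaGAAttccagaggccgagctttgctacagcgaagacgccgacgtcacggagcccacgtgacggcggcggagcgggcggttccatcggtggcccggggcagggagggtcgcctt
Bcl6 second start, chr16:23981284-23981533: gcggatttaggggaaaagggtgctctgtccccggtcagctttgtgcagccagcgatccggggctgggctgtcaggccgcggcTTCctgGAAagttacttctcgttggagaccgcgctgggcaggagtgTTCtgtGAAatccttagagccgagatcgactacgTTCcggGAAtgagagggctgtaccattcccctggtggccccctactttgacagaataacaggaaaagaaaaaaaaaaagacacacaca

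The stretch before the first start held 1 match, TTCTCAGAA, from 118 to 110 bases upstream (23988962 to 23988970). The stretch before the second start held 3 matches: TTCCTGGAA from 168 to 160 bases upstream, TTCTGTGAA from 122 to 114 and TTCCGGGAA from 88 to 80. The motif reads the same on both strands, and the 3 matches do not overlap. Each RefSeq promoter sequence runs from 250 bases before to 50 after a start. Of 32851 such sequences, 8.30% held at least 1 match and 0.0335% (11 sequences) held 3, the most found in any. All 4 peaks of the start site overlapped the sequence shown before the first start, and no peak of the 12 libraries overlapped that before the second. No library had a peak in any of the 11 promoter sequences with 3 matches, which count Gm36309 at overlapping positions. Of the 32851 sequences, 55 (0.167%) overlapped a site found in every WT IL-21 and no WT IL-4 library. The share overlapped by any peak was not counted, so 0 of 11 does not set these sequences apart. A match describes these letters and is not shown to be a bound site.

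The start site (chromosome 16, 23988392 to 23989110, 719 bp over the 4 libraries) covered the first start of Bcl6. It also lay at one end of Gm31527, a long non-coding RNA gene (23988267 to 23999436) whose span overlaps that of Bcl6. The summit, where the signal of a peak is highest, lay inside the gene in each library. It was 140 bp past the start in library 1 and 97 bp past it in library 2 of the IgM cells, and 61 bp and 143 bp past it in libraries 1 and 2 of the IgG1 cells. The summits of both isotypes thus fell within 82 bp of each other, with IgM and IgG1 interleaved. All 4 peaks shared an interval of 237 bp (23988670 to 23988906). The genomic sequence at the summits was not used here, since the promoter table ends 50 bases past the start. The TTCTCAGAA match lay 175 to 257 bp from the summits. It was covered by the peaks of both IgM libraries (463 and 719 bp wide) and by neither of the narrower IgG1 peaks (263 and 278 bp).

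**Figure D1:**
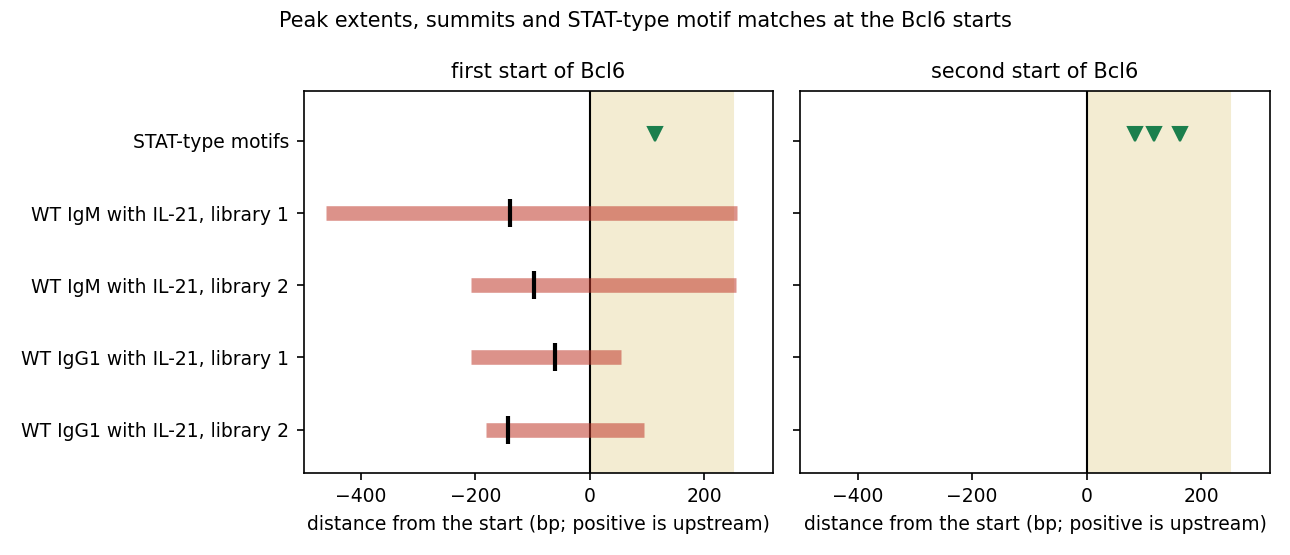
Bars show the extent of each peak of the start site in the 4 WT IL-21 libraries and black ticks its summit, against the distance from the first (left) and second (right) Bcl6 start in bp, positive upstream. Triangles mark TTCNNNGAA matches and the shaded band is the 250 bases shown in the text; the 4 summits sit 61 to 143 bp inside the gene, and the second start, with 3 matches, has no peak.

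The fold enrichment of a peak is the authors' own value. It is read here as the summit height plus 1, divided by the background in the same library plus 1. At the start site it was 29.7 in WT IgM library 1 and 11.6 in library 2 with IL-21. In WT IgG1 cells with IL-21 it was 6.67 in library 1 and 14.9 in library 2. The IgG1 values lay on both sides of the lower IgM value, so the isotypes overlapped. The highest of the 4 was 4.45 times the lowest, and the mean was 15.7 ± 9.90 (SD, n = 4). No WT IL-4 library and no KO library had a peak there.

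Fold and −log10 p together fix a whole number of fragments at the summit and a background, which puts these folds in counts. The start site had 83 fragments over a background of 1.83 in IgM library 1, and 41 over 2.61 in IgM library 2. It had 20 fragments over 2.15 in IgG1 library 1 and 46 over 2.16 in IgG1 library 2. In each case the background was that found as the lowest in the library. The smallest pileup called anywhere in a list was 10 to 11 fragments in the WT IL-4 and in the KO libraries, whose lowest backgrounds were 1.72 to 2.32 and 2.02 to 2.24 fragments. The fragments that the WT IL-4 and KO libraries hold at the Bcl6 start are not given by their lists. A missing peak there is therefore not a count of 0.

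By −log10 p the start site ranked 26 of 2034 peaks in IgM library 1 (−log10 p 105), and 72 of 1171 in IgM library 2 (34.7). It ranked 122 of 865 in IgG1 library 1 (13.6) and 50 of 1485 in IgG1 library 2 (44.6). These places are the top 1.28%, 6.15%, 14.1% and 3.37% of their lists. The site was thus near the head of each list, least so in IgG1 library 1, which also gave it the fewest fragments.

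**Figure D2:**
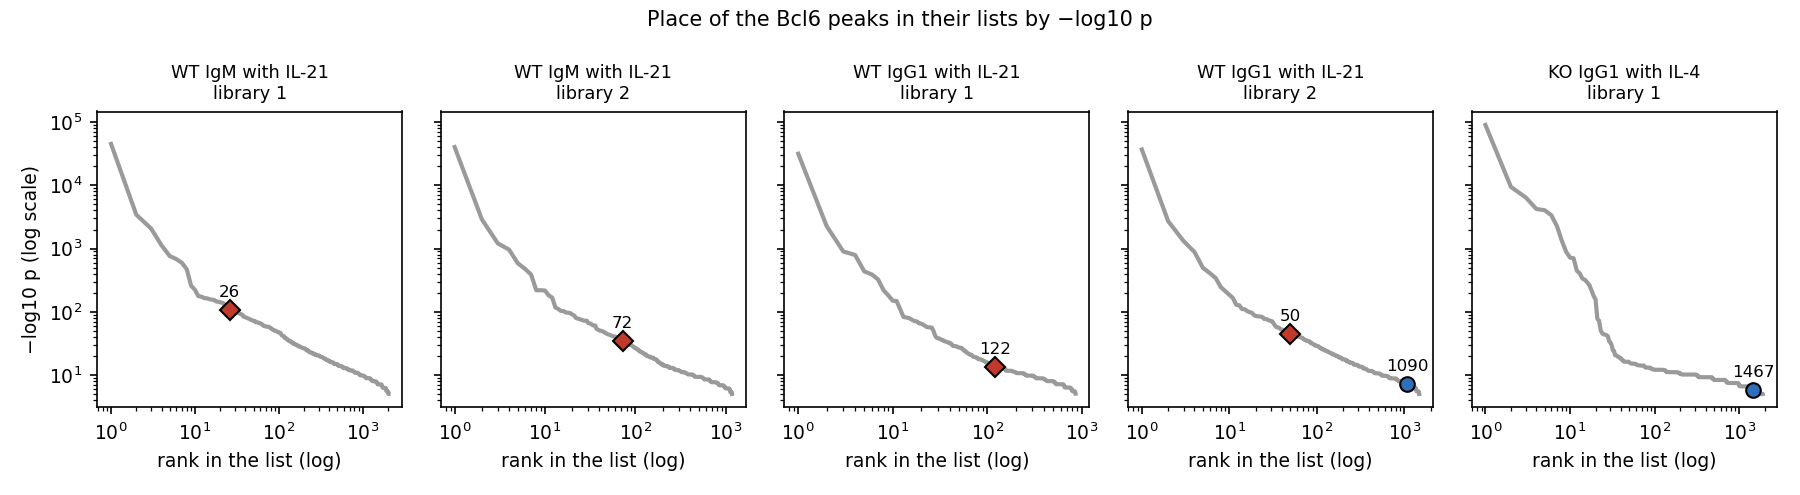
Each panel plots −log10 p against rank for all peaks of 1 library (grey line, both axes logarithmic), with the Bcl6 start site as a red diamond and single-library peaks of the window as blue circles, labelled with their rank. The start site ranks 26 to 122, whereas the upstream peaks rank 1090 of 1485 and 1467 of 1892.

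The first comparison asked whether STAT3 peaks at Bcl6 differed between IL-21 and IL-4 in WT cells. The window held 1 peak in each IgM library and 1 and 2 peaks in the IgG1 libraries with IL-21, and 0 peaks in all 4 libraries with IL-4. The groups did not overlap. The difference in means was 1.25 peaks (two-sided exact permutation within isotype, p = 0.0556, the smallest that 36 arrangements allow, and 0.167 adjusted over 3 contrasts). How many other gene windows show this was not counted. Of all 21887 protein-coding gene spans plus 200 kb, 4.02% held at least 1 site called in every WT IL-21 and no WT IL-4 library. The start site was found in 4 of 4 libraries with IL-21 and 0 of 4 with IL-4 (Fisher's exact test, p = 0.0286). This test pooled the isotypes, and that p is the smallest that 4 against 4 libraries allow. After adjustment over the 7461 regions with a WT peak the p of the start site was 1, and 0 regions (0.0%) passed, against 98 at an unadjusted p under 0.05. With only 98 regions at that smallest p none could pass, so this outcome does not speak of a lack of difference. Those 98, the start site among them, were called in every WT library given IL-21 and in none given IL-4, which is 1.31% of the 7461, and 0 regions (0.0%) showed the reverse. The gene was taken up with this result known, so these values describe the locus and are not independent support.

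Since fold depends on the library, the start site was set beside the other sites of the same 98 in each library. It ranked 3 by fold in IgM library 1, where the median of the 98 was 13.4, and 17 in IgM library 2 (median 7.61). It ranked 41 in IgG1 library 1 (median 6.18) and 12 in IgG1 library 2 (median 8.83). Its fold was 2.22, 1.53, 1.08 and 1.68 times the median in the same order, a mean of 1.63 ± 0.470 (SD, n = 4). The site was above the median in every IL-21 library, by the smallest margin in IgG1 library 1. By mean fold over the 4 libraries it ranked 10 of 98. The highest Bcl6 fold was in the library with the highest median.

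**Figure D3:**
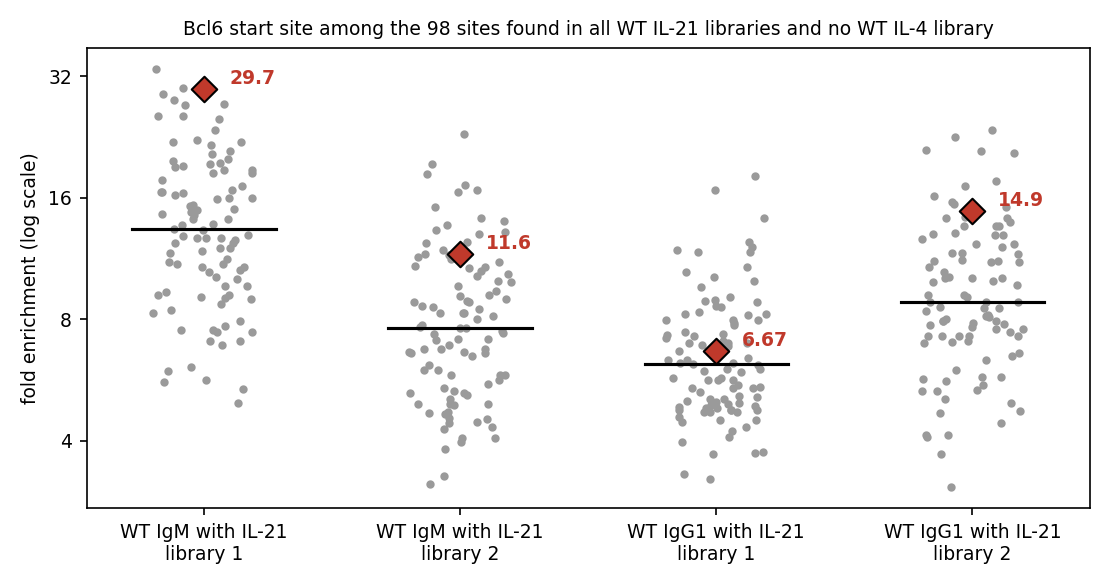
Fold enrichment on a logarithmic axis in the 4 WT IL-21 libraries for the 98 sites called in each of these and in none given IL-4 (grey points, black bar at the median), with the Bcl6 start site as a red diamond. The Bcl6 values of 29.7, 11.6, 6.67 and 14.9 lie above the median of each library.

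The second comparison asked which sites at Bcl6 were found without STAT3. Both KO libraries with IL-21 and the KO IgM library with IL-4 had 0 peaks in the window, and the KO IgG1 library with IL-4 had 1. The start site had no peak in any KO library, as had 93.9% of the 98 regions and 95.3% of all 7461 regions with a WT peak, so the lack of a KO peak does not set it apart. The mean number of peaks in the window was 0.625 in WT and 0.25 in KO, a difference of 0.375 that did not pass (two-sided exact permutation within treatment and isotype, p = 0.667, adjusted p = 1, smallest possible 0.0123). The difference was 0.25 without IgG1 library 2 of WT with IL-21 and 0.75 with 500 kb on either side. Only WT libraries with IL-21 held the start site, and 4 of the 8 WT libraries in that test were given IL-4.

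The third comparison was between IgM and IgG1 cells. Over both treatments the WT IgM libraries held a mean of 0.5 peaks in the window and the IgG1 libraries 0.75 (difference −0.25, two-sided exact permutation within treatment, p = 1, smallest possible 0.0556). The whole difference was 1 peak of IgG1 library 2 with IL-21, without which it was 0. At the start site the mean fold was 20.6 ± 12.8 in IgM cells and 10.8 ± 5.78 in IgG1 cells (SD, n = 2 each), a difference smaller than the spread within IgM. Relative to the median of the 98 sites the means were 1.87 and 1.38.

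The nearer upstream site (chromosome 16, 24067157 to 24067448) was called in WT IgG1 library 2 with IL-21 alone. Its summit lay 78425 bp upstream of the first start, between genes, and 9198 bp from the nearest annotated gene, the long non-coding RNA Gm46545. The fold was 4.42 (13 fragments over 2.16) and the rank 1090 of 1485, in the lower part of the list. The farther upstream site (24156781 to 24157034) was called in the KO IgG1 library with IL-4 alone. Its summit lay 168126 bp upstream of the first start and 1171 bp from the long non-coding RNA Gm32126. The fold was 3.97 (11 fragments over 2.02) and the rank 1467 of 1892. Peaks of a single library are the common case: 89.0% of the 7461 regions with a WT peak were found in exactly 1 WT library, and 90.2% of the 4119 regions with a KO peak were found in exactly 1 library. Neither upstream site had a peak in any other library, and the farther one comes from a group with no replicate.

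**Figure D4:**
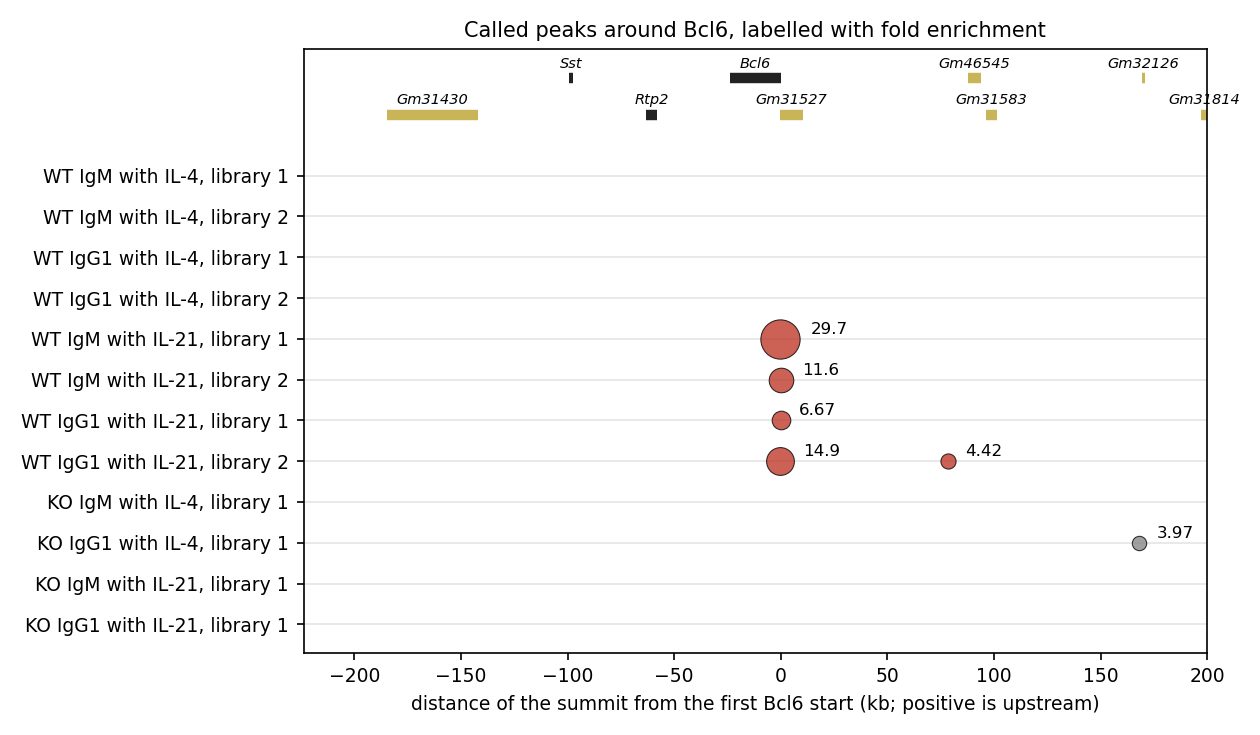
Each circle is a called peak in the Bcl6 window, placed by the distance of its summit from the first Bcl6 start in kb (positive upstream) and by library (rows), with its area set by fold enrichment and its fold printed beside it. Red is WT with IL-21 and grey is KO, the 4 WT IL-4 rows are empty, and bars at the top are protein-coding (black) and long non-coding (yellow) genes.

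The window holds 2 further protein-coding genes, Sst, which encodes the hormone somatostatin (23889573 to 23891342), and Rtp2, which encodes a transporter of odorant receptors (23925548 to 23930794). Neither had a peak in any library, nor did the downstream 200 kb as a whole. The body of Bcl6 beyond the start site had none either. Between 200 and 500 kb from the gene there were 6 more peaks, with folds of 3.92 to 6.71 and each in a single library. The nearest of these to the window lay 358847 bp from the Bcl6 span, in IgM library 1 with IL-21 (fold 6.71). Across all 21887 protein-coding genes, 4.02% had at least 1 of the 98 sites within their span and 200 kb, and 0.439% had 2 or more. The Bcl6 window had 1. Neighbouring windows overlap, so these shares are a description.

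Seen from gene starts, 55 of the 32851 RefSeq promoter sequences (0.167%) overlapped one of the 98 sites, and the one at the first start of Bcl6 was among them. Of these 55, 21 (38.2%) held at least 1 TTCNNNGAA match, as does that of Bcl6, against 8.30% of all 32851, and 2 (3.64%) held at least 2, against 0.457%.

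Among 86 other sites with the same presence in all 12 libraries (found in the 4 WT IL-21 libraries, and in none of the others) and a protein-coding gene within 50 kb, those most like the start site were sought by the mean absolute difference in percentile rank by −log10 p over the 4 WT IL-21 libraries. The closest lay near Gm46977 (chromosome 6, 134034962 to 134035744), 1.12 percentage points away on average. Next came sites within Rnf157, which encodes a RING-type ubiquitin ligase (chromosome 11, 116376907 to 116377601, 1.29 points), and within Crlf2, which encodes the receptor chain for the cytokine TSLP (chromosome 5, 109558275 to 109559090, 1.51 points). A site within Notch1, a receptor of cell fate signalling (chromosome 2, 26492987 to 26493934), followed at 1.95 points and one near Frmd8 (chromosome 19, 5845514 to 5847062) at 2.08 points. The median over the 86 was 6.02 points. The mean folds of these 5 sites were 12.3 to 15.5, and each had its lowest fold in IgG1 library 1, as had Bcl6. At Crlf2 the folds were 21.5 and 8.84 in IgM cells and 6.24 and 13.6 in IgG1 cells, and at Notch1 22.3 and 8.02 in IgM and 6.67 and 14.2 in IgG1. The order of the libraries was that of Bcl6 at Gm46977, Crlf2 and Notch1, but not at the other two. Rnf157 was highest in IgG1 library 2 (23.5, against 20.0 in IgM library 1), and at Frmd8 IgM library 2 (12.4) was above IgG1 library 2 (10.5). The 5 sites were chosen for like ranks in these same libraries, so a like order is no separate finding. The median fold of the 98 sites had the Bcl6 order too, so that order is not particular to these sites. It was 13.4 in IgM library 1, 8.83 in IgG1 library 2, 7.61 in IgM library 2 and 6.18 in IgG1 library 1.

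Other genes of the germinal centre programme were looked up in 5 lists of 95 genes in all. A region in WT within 50 kb was found for 48 of them, against 4631 of all 21887 protein-coding genes. Of these 48, only Ccr7 had a region of the same presence in WT as the Bcl6 start site (every IL-21 library, none with IL-4), against 1.92% of the 4631 protein-coding genes with a WT region. Ccr7, the chemokine receptor that guides B cells toward T cells, had it 11813 bp from the gene (chromosome 11, 99132263 to 99132802). The fold there was 18.4 and 7.47 in the IgM libraries and 8.90 and 12.6 in the IgG1 libraries. When presence in 3 of the 4 IL-21 libraries was enough, still with no peak in the WT libraries given IL-4, 7 of the 48 had a region, against 4.82% of the 4631. The lists were written with earlier results known, and this call was taken up after its values were seen. The 7 of 48 is therefore a description and not independent support. By that wider call, 4 of the 17 germinal centre transcription factors with a WT region had one: Batf, Bcl11a, Irf8 and Tcf4. The Bcl11a region was called in KO cells too, in IgM cells given IL-4 (fold 5.08). Among the 14 known BCL6 targets with a WT region, Id2, an inhibitor of E proteins, had one, and of the 10 germinal centre surface and effector genes, Ccr7 alone.

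IRF8 is a transcription factor of germinal centre B cells, and its region 10719 bp from the gene had folds of 4.60 and 4.73 in IgM cells and 4.95 in IgG1 library 2. The region within Tcf4, which encodes an E protein, had 8.19 and 6.54 in IgM cells and 7.50 in IgG1 library 2. Irf8 and Tcf4 had no peak there in IgG1 library 1, the shortest list of the 4, and their folds were below that of Bcl6 in each library that had them. Batf, an AP-1 family factor, had 2 regions of note. That 29 bp from the gene, which met the wider call, had folds of 6.36 in IgM library 1 and 4.45 and 3.72 in the IgG1 libraries, and no peak with IL-4. A region within the gene was found in all 4 WT IL-21 libraries (19.8, 17.2, 8.09 and 14.2) and also in 3 WT IL-4 libraries (4.61, 3.60 and 4.00).

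The lists of corepressors and partner proteins and of BTB zinc finger relatives gave no such region. Of the 15 corepressors and partner proteins of BCL6, 5 had a WT region, against 4631 of all 21887 protein-coding genes. Of these 5, 0 had a region in 3 or more WT IL-21 libraries. Bcor, which encodes a corepressor that binds the BTB domain, had 6 regions, each in a single WT IL-21 library. Of the 13 BTB zinc finger relatives 5 had a WT region, again with 0 in 3 or more. Bach2, one of them and a repressor of plasma cell differentiation, had 2 regions, each in 1 WT IL-4 library. On the remaining lists, Prdm1, the plasma cell regulator that BCL6 represses, had 1 region, with a peak in 1 WT IL-4 library (fold 4.73). Irf4, a factor of both germinal centre entry and plasma cell fate, had 1, in IgM library 1 with IL-21 (3.87). Pax5, the B cell identity factor, had 2, each in 1 WT IL-21 library (7.42 and 4.13). Il21r, the receptor chain for IL-21, also had 2, each in 1 WT IL-21 library (4.39 and 5.78).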

How the data were processed

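MACS2 2.2.7.1, deepTools 3.5.1, Bowtie2 2.4.1, Trimmomatic 0.39 and build mm10 are listed in the submitters' processing notes, with no role for each. Neither the control for peak calling nor any use of the yeast spike-in is stated there. The authors deposited 1 peak list per library, with a score, a fold over background and a −log10 p and −log10 q per peak. The lists give no depth. A whole pileup and a background were solved from fold and −log10 p (within 0.001 for 100% of those whose −log10 p was under 30), a method tested on simulated data. Peaks on unplaced or mitochondrial sequence (395 of 13908) and the input sample were not used. No peak record was shared between libraries. Regions were assigned to the nearest of 21887 protein-coding RefSeq gene spans within 50 kb of the best summit, and 95 of the 95 listed genes matched by symbol. Exons are not in the table. Analyses used Python 3.11.15, pandas 2.3.3, scipy 1.17.1 and numpy 2.4.6.

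The locus, the gene lists and the tests were chosen with earlier results of these data known. Named genes were the genes of the window, the 5 sites most like the start site, and listed genes present in 3 or more WT libraries given IL-21 or well known in their list; the wider call, and Bcor, Batf and Il21r, were taken up after their values were seen. Replicate numbers pair no libraries in the labels. Alternatives covered peak strength, list length, window size, merging, gene distance, a replicate block and leaving out each WT library. A listed gene is not reported here by name.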

Additional observations from a re-analysis of the deposited data

Results flagged for a closer look

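In 9 sets of 4 libraries 2 held a value far from the others. The rule picks out about 1 in 20 sets by chance, a rate that does not apply to tied counts. Both sets held small counts in which the other values tied, so 1 extra peak was enough. Among the WT IL-21 libraries the highest number of peaks in the Bcl6 window was 2, in IgG1 library 2, against 1 in each of the others. Among the KO libraries the highest was 1, in IgG1 cells with IL-4, against 0 in the others. Each rests on a single peak of a low rank. The folds, ranks, widths, summits and pileups of the start site held no such value.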

How the results depend on the processing

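The start site was the 1 site with a peak in all WT IL-21 and no WT IL-4 library under all 17 alternatives, including each WT library left out. The difference between IL-21 and IL-4 stayed positive (0.962 to 1.5 over 17 alternatives), with p from 0.0556 to 0.125, and that between WT and KO stayed positive (0.25 to 0.75 over 16) without passing. With a replicate block the IL-21 difference was 1.25 (exact permutation p = 0.125, the smallest of 16 arrangements) and the IgM minus IgG1 difference −0.25; same-numbered libraries did not vary together (correlations −0.0680 to 0.0998). The IgM minus IgG1 difference was 0 with a −log10 q or a fold of at least 5, with 623 peaks from each list and with 50 kb each side, and turned to 1 with 500 kb each side; over libraries left out it ran from −0.5 to 0. The mean fold of the start site was 11.0 to 18.7 with a library left out. The count of listed genes with such a region was 0 with genes within 10 kb, 7 with at least 3 of 4 libraries and 2 (Batf and Ccr7) with a −log10 q of at least 5. Gene windows with at least as many such sites as Bcl6 numbered 879, and 499 and 303 with 100 and 50 kb each side. Presence could not be tested below a peak caller's limit, so weaker binding with IL-4 or in KO cells was not measured.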
